A study of Arabidopsis thaliana with 24 samples.

Results

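The genes described here are 105 Arabidopsis thaliana genes whose transcript level was higher after a short heat stress in wild type and in 3 chromatin mutants alike, less 18 genes of chaperones and their helpers that were left out by name. They were chosen from the measured values: heat minus control, as a difference of group means on the log2 scale, had to be at least 1 (a doubling) in all 4 genotypes, and the level in brm control plants had to lie within 0.8 of that in WT control plants. Of 16552 genes measured, 127 met the first threshold and 123 met both. The 18 left out of these include small heat shock proteins, Hsp70-2, Fes1A, HSA32, Hop2 and Hop3. Chaperones that the rule did not name, such as BIP1 and Cpn60beta2, remain. The size of the response within each of the 4 genotypes is therefore given as a description, with no test. The tests concern differences between genotypes, in level and in response, and are not independent of the choice. It set a floor under every response, bounded brm against WT in control, and used the same arrays.

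The study set 2 chromatin factors side by side under heat, the histone deacetylase HD2C and the chromatin-remodelling ATPase BRAHMA (BRM). Total RNA of the plants was hybridised to 24 arrays, in 8 groups of 3. The mutants were hd2c-3 (here hd2c), brm-1 (brm) and brm-1 hd2c-3 (the double mutant), set against WT, and each genotype was measured in heat (38 °C for 1 h) and in control conditions. All groups share the Col-0 background and an age of 3 weeks. The design text says that the 3 biological replicates of a group were picked for like expression of marker genes that it leaves unnamed, which can make replicates more alike than unpicked plants. The labels name no tissue. RCA, the leaf gene of Rubisco activase, lay between 10.6 and 11.3 on all arrays. Of the 2 root markers measured, PYK10 lay between 7.82 and 9.80 and AT5G46890 between 0.78 and 1.49. No probe set is named for BRM or HD2C, so the mutants were not checked against the targeted transcripts.

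Plants exposed to heat make heat shock proteins within minutes, driven by heat shock factors that bind their promoters. Beyond these chaperones the response reaches protein quality control in the endoplasmic reticulum and the organelles, mitochondrial and plastid functions, and many genes of unknown role. Histone deacetylases are known for closing chromatin and SWI/SNF remodellers such as BRM for moving nucleosomes, so both can raise or lower the reach of transcription factors to a promoter. In whole-tissue RNA, more transcript per cell and more cells that express a gene cannot be told apart.

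Only 11 of the 105 genes carry a symbol in the annotation used here, and the other 94 are known by their locus alone. Their names therefore say little about function, and roles are given below only for genes with a symbol or a named synonym there. By chromosome the genes fell 26, 17, 12, 21 and 29 on chromosomes 1 to 5, which is 24.8%, 16.2%, 11.4%, 20.0% and 27.6% of them, against 25.9%, 15.4%, 20.5%, 14.8% and 23.1% of all genes measured. Among 10416 neighbouring pairs of measured genes, 2 pairs had both genes on the list: AT1G27410 with AT1G27420, and AT1G66500 with AT1G66510. For 103 of the genes a single probe set was measured. AT2G07722 had 3, and the other 2 gave responses of 1.77 to 1.96. These 2 held the same values as each other, so they do not count as separate readings. AT5G67490 had 2, and the dimmer one disagreed, with responses of 0.12 to 0.37.

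The response to heat differed in size between genotypes over the list. Its median was 2.20 in hd2c, 2.08 in brm, 2.12 in the double mutant and 1.58 in WT, which is 4.58-fold, 4.22-fold, 4.33-fold and 2.99-fold. A response of at least 2 was found for 60 genes in hd2c, 55 in brm, 59 in the double mutant and 29 in WT. The lowest response of the 4 genotypes was that of hd2c for 4 of the 105 genes, brm for 20, the double mutant for 12 and WT for 69. The highest response was in the double mutant for 40 genes, in hd2c for 34, in brm for 25 and in WT for 6. The 18 genes left out by name had medians of 5.99 in hd2c, 5.48 in brm, 5.84 in the double mutant and 4.57 in WT, and WT was lowest for 16 of them.

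**Figure D1:**
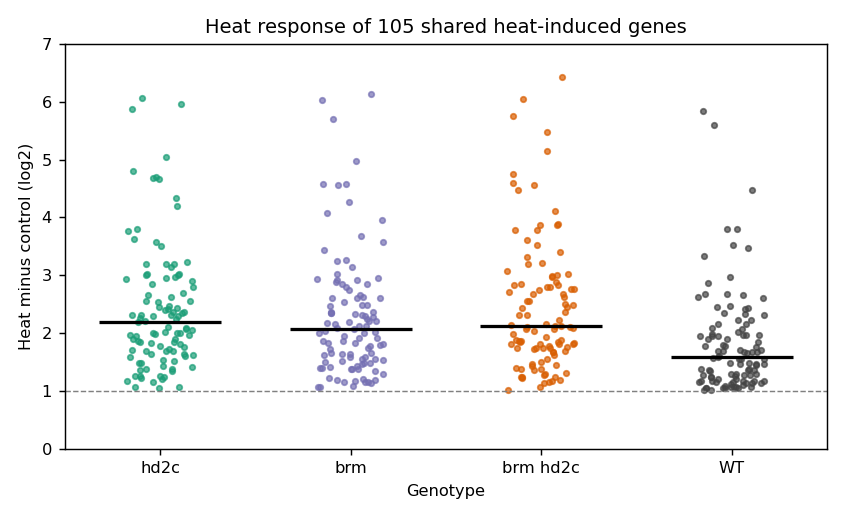
Heat response of the 105 genes in each genotype, as the difference of group means between heat and control (log2, 3 arrays in each group). Each point is 1 gene, bars are medians, brm hd2c is the double mutant and the dashed line is the threshold of 1 that chose the genes. The 3 mutant medians of 2.08 to 2.20 lie above the WT median of 1.58.

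The mutants also lay above WT array by array. Taken relative to the WT control mean of each gene, the median over the 105 genes was 1.89, 2.30 and 2.41 on the 3 hd2c heat arrays, 1.94, 2.26 and 2.11 on those of brm, 2.12, 2.27 and 2.37 on those of the double mutant, and 1.42, 1.74 and 1.55 on those of WT. All 9 mutant heat arrays lay above all 3 WT heat arrays, and the 12 control arrays lay between −0.05 and 0.10. The median over all 16552 genes stayed between −0.05 and 0.09 on the heat arrays. The 18 genes left out by name moved with these medians: theirs were 5.36, 6.08 and 6.52 in hd2c, 4.67, 5.67 and 5.22 in brm, 5.76, 5.95 and 5.99 in double mutant plants, and 3.87, 5.08 and 4.77 in WT. The first replicate was the lowest heat array of each genotype in both sets of genes. With the replicate number as a block, 35 genes were called for hd2c, 42 for brm and 54 for the double mutant against WT in heat, beside 28, 36 and 53 without it (limma, adjusted p under 0.05).

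**Figure D2:**
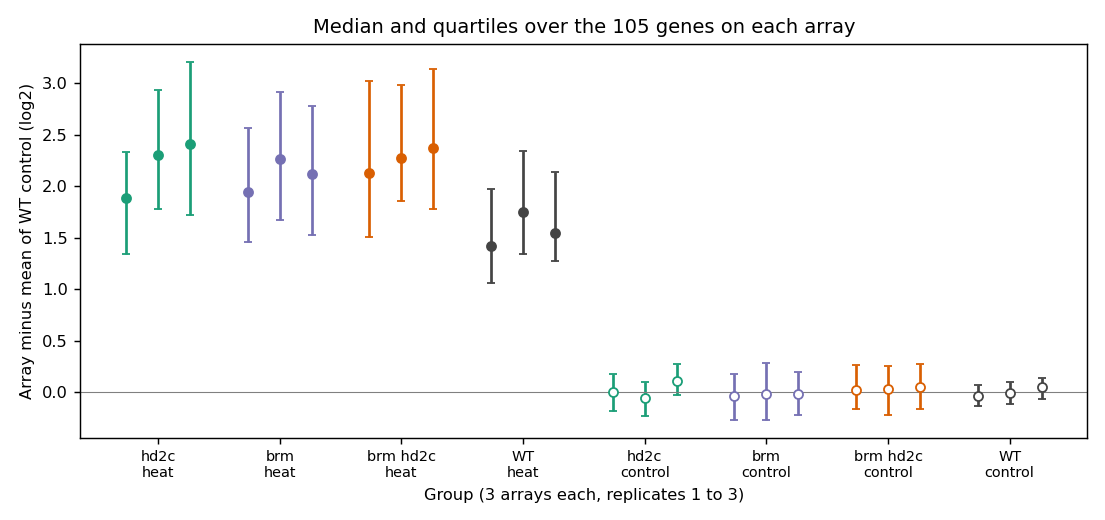
Median (point) and quartiles (whiskers) over the 105 genes on each array, as the level minus the WT control mean of the gene (log2), by group with 3 arrays each, heat filled and control open. The 9 mutant heat arrays lie between 1.89 and 2.41, the 3 WT heat arrays between 1.42 and 1.74.

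The spread between replicates was uneven. The median SD of the 105 genes was 0.35 in hd2c heat, 0.21 in brm heat, 0.21 in double mutant heat and 0.24 in WT heat, and 0.16 to 0.20 in the control groups. On single arrays, between 83 genes (WT heat replicate 1) and 104 genes lay at least 1 above the control mean of their own genotype. The threshold itself parts genes of nearly equal response. Just inside it, 16 genes had a lowest response of 1.01 to 1.1. Just outside, 21 genes had 0.90 to 1.00, with AT2G24550, AT4G32208 and AT2G27500 the nearest at 1.00, 0.99 and 0.98. The bound on the brm control level kept out 4 genes: AT1G66090, AT3G14200, AT4G14746 and AT4G33660, with differences of −1.02 to 1.29. On the inner side of that bound AT5G67490 lay at −0.80. Genes that missed the response threshold in 1 genotype only were 3 for hd2c, 20 for brm, 11 for the double mutant and 38 for WT.

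Over the 105 genes the genotypes were then compared within heat. In hd2c 28 of the 105 genes were called, all higher than in WT, by 0.65 to 2.06 (limma, adjusted p under 0.05). Over all genes the same test called 0.598%, with 0.495% higher and 0.103% lower. The median difference was 0.54 over the 105 genes and 0.03 over all genes, and it was positive for 95 of them. This count rested on single arrays: with hd2c heat replicate 1, 2 or 3 left out it was 49, 2 and 7, and with WT heat replicate 1 or 3 left out it was 1 and 18. The gene still called without WT heat replicate 1 was AT1G30070.

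In brm 36 genes were called, 33 higher and 3 lower than in WT, from −0.75 to 3.26, against 5.10% among all genes, of which 2.79% higher and 2.31% lower. The median difference was 0.45 over the 105 genes and −0.01 over all genes, with 81 of the 105 positive. Without WT heat replicate 1 the count was 21. The 3 genes lower in brm were AT2G21640, AT1G73750 and AT2G26690.

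In the double mutant 53 genes were called, 51 higher and 2 lower than in WT, from −0.78 to 4.06, against 9.33% among all genes, of which 5.15% higher and 4.19% lower. The median difference was 0.61 over the 105 genes and 0.01 over all genes, and 94 of the 105 were positive. These 3 comparisons share the WT heat arrays, so their counts are not independent of one another. Of the 18 genes left out by name, 7 were called for hd2c, 8 for brm and 12 for the double mutant, each above WT.

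Counted without a model, all heat arrays of hd2c lay above all heat arrays of WT for 53 of the 105 genes and below for 2. For brm these numbers were 51 and 7, and for the double mutant 66 and 3. Over all genes the share above was 8.95%, 10.2% and 10.6%, and the share below was 6.78%, 10.5% and 10.8%, for the same comparisons.

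Between the double mutant and hd2c 10 of the 105 genes (9.52%) were called, 7 higher and 3 lower in the double mutant. Over all genes 5.03% were called (3.01% higher, 2.02% lower). The median difference over the list was 0.07, and the called differences ran from −1.58 to 2.70. Against brm 28 genes were called, 21 higher and 7 lower, where 4.80% of all genes were called (2.78% higher, 2.02% lower), with a median of 0.12. The count against brm was 13 without double mutant heat replicate 3, 17 without brm heat replicate 1 and 18 without brm heat replicate 3.

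**Figure D3:**
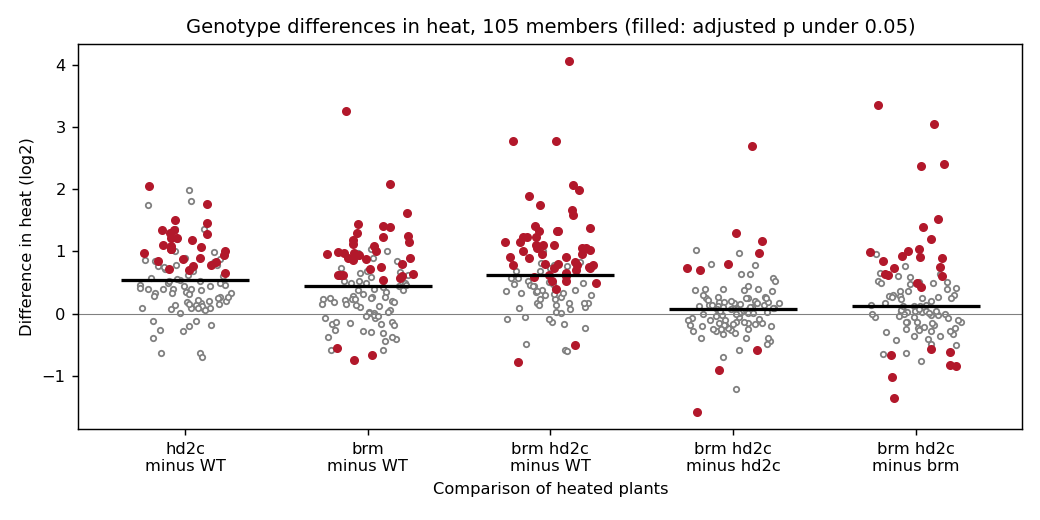
Difference between genotypes in heat for the 105 genes (log2, means of 3 arrays). Filled points are called by limma at an adjusted p under 0.05, open points are not, and bars are medians. The median lies at 0.45 to 0.61 against WT, and at 0.07 and 0.12 for the double mutant against hd2c and brm.

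**Figure D4:**
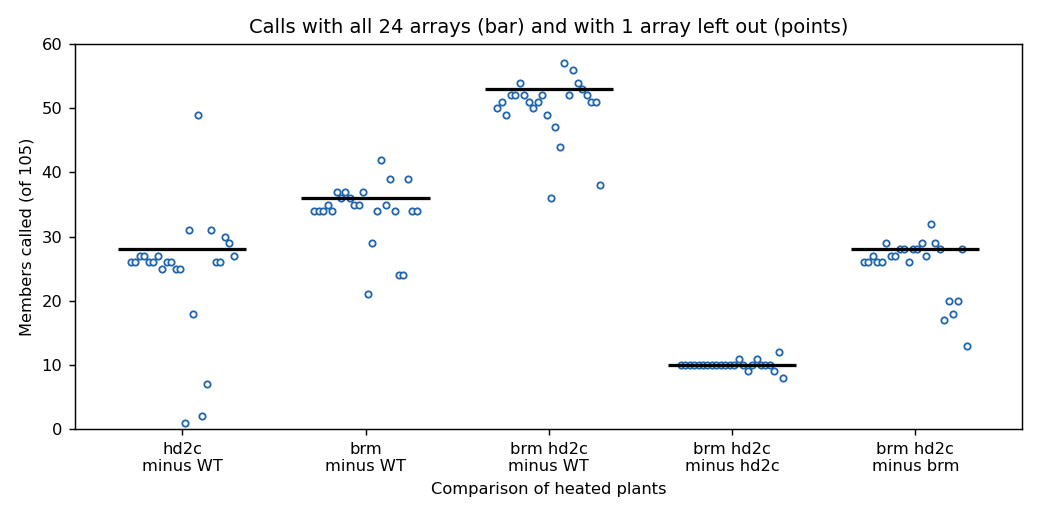
Number of the 105 genes called in each comparison within heat. The bar is the count with all 24 arrays and each point the count with 1 array left out. The count for hd2c minus WT runs from 1 to 49 around 28, and that for the double mutant minus WT from 36 to 57 around 53.

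Of the genes with a symbol, those of chaperones and of protein removal are given first. Cpn60beta2 (AT3G13470) encodes a subunit of the chloroplast chaperonin, which folds imported proteins. In heat its levels were 9.36, 9.77 and 10.08 in hd2c, 9.43, 9.70 and 9.85 in brm, 9.83, 9.89 and 9.66 in double mutant plants, and 9.40, 9.38 and 9.40 in WT. In control they were 6.08, 6.14 and 6.47 in hd2c, 6.69, 6.63 and 6.23 in brm, 6.57, 6.70 and 6.46 in double mutant plants, and 5.57, 6.33 and 5.70 in WT. The heat arrays of the 4 genotypes lay close together, and its responses were 3.51 in hd2c, 3.14 in brm, 3.21 in the double mutant and 3.53 in WT. None of the genotype differences in heat passed the test. In control plants it was higher in the double mutant than in WT, by 0.71 ± 0.19 (adjusted p = 0.0384), and the arrays of these groups did not overlap. That call was lost without WT control replicate 1 or 3, or without any 1 of the 3 double mutant control arrays (adjusted p up to 0.23 over all alternatives). A list of 24 organelle chaperonins, HSP70s, ClpB proteins and GrpE proteins had 5 measured genes. Of these, 3 were called higher in heat in hd2c, 3 in brm, 2 in the double mutant and 3 in WT, and none was lower. Each count includes Cpn60beta2 itself, which was chosen for its rise in heat, so that call says nothing new. The related subunit Cpn60beta3, which is not among the 105 genes, rose by 0.84 ± 0.14 in hd2c, 0.79 ± 0.14 in brm, 0.87 ± 0.14 in the double mutant and 0.52 ± 0.14 in WT (limma adjusted p = 0.0001, 0.000264, 5.79e-05 and 0.013). Over all genes 8.88% were called higher in heat in hd2c, 7.28% in brm, 9.38% in the double mutant and 5.80% in WT, and 11.2%, 8.51%, 12.1% and 7.48% were called lower.

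SGT1A (AT4G23570) is a co-chaperone of HSP90 that acts in disease resistance. On the heat arrays it stood at 7.05, 7.39 and 7.81 in hd2c, 7.78, 8.25 and 8.03 in brm, 7.62, 7.82 and 7.91 in double mutant plants, and 6.27, 6.62 and 6.33 in WT. Control levels were 5.04, 4.95 and 5.33 in hd2c, 5.32, 5.38 and 5.52 in brm, 5.39, 5.18 and 5.49 in double mutant plants, and 5.06, 4.56 and 4.89 in WT. All 9 mutant heat arrays lay above the WT heat arrays, and brm was highest. Against WT in heat the difference was 1.01 ± 0.17 (adjusted p = 0.00696) in hd2c, 1.61 ± 0.17 (adjusted p = 2.63e-06) in brm and 1.38 ± 0.17 (adjusted p = 1.26e-05) in the double mutant (limma, n = 3 per group). The hd2c call was lost without WT heat replicate 1, hd2c heat replicate 2 or hd2c heat replicate 3 (adjusted p up to 0.22 over all alternatives), and the other calls held in all 34 alternatives.

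BOB1 (AT5G53400), BOBBER1, is a small chaperone-like protein needed for development and thermotolerance. Its heat levels were 7.86, 8.23 and 8.37 in hd2c, 8.04, 8.42 and 8.46 in brm, 8.10, 8.34 and 8.56 in double mutant plants, and 7.14, 7.53 and 7.44 in WT, and its control levels ran over 5.36 to 6.12. Every mutant heat array was above the WT heat arrays. The difference from WT in heat was 0.94 ± 0.19 (adjusted p = 0.00281) in brm and 0.97 ± 0.19 (adjusted p = 0.00138) in the double mutant, while that of hd2c, 0.79 ± 0.19 (adjusted p = 0.0541), missed the threshold.

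DER1 (AT4G29330) and DER2.1 (AT4G21810) belong to the derlins, membrane proteins of the endoplasmic reticulum that help to remove misfolded proteins. For DER1 the heat levels were 8.38, 8.74 and 9.03 in hd2c, 8.74, 9.09 and 9.02 in brm, 8.56, 8.84 and 8.83 in double mutant plants, and 7.72, 8.11 and 8.01 in WT, with control arrays from 6.56 to 6.93. It was higher than WT in heat by 0.77 ± 0.15 (adjusted p = 0.0158) in hd2c, 1.00 ± 0.15 (adjusted p = 0.000171) in brm and 0.79 ± 0.15 (adjusted p = 0.00115) in the double mutant, and no mutant array overlapped the WT arrays. The hd2c call was lost without WT heat replicate 1, hd2c heat replicate 2 or hd2c heat replicate 3 (adjusted p up to 0.309 over all alternatives). DER2.1 showed no such pattern: its heat levels were 8.62, 8.79 and 8.98 in hd2c, 8.47, 8.85 and 8.85 in brm, 8.56, 8.78 and 9.04 in double mutant plants, and 8.20, 8.56 and 8.67 in WT, which overlap. Its differences from WT in heat were 0.32 ± 0.16 for hd2c, 0.25 ± 0.16 for brm and 0.32 ± 0.16 for the double mutant, none past the threshold.

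BIP1 (AT5G28540) is the HSP70 of the endoplasmic reticulum. Its near-identical copy BIP2 can share probes, so its values are uncertain. Its heat levels were 4.30, 4.97 and 5.32 in hd2c, 4.77, 5.56 and 4.78 in brm, 2.82, 5.22 and 4.80 in double mutant plants, and 4.58, 4.09 and 3.75 in WT, and 1 of the double mutant arrays lay within the range of the control arrays, 2.55 to 3.96. The differences from WT in heat were 0.72 ± 0.41, 0.90 ± 0.41 and 0.14 ± 0.41 in hd2c, brm and the double mutant, and none passed.

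Other genes with a symbol act in the organelles, the cell wall and transport. CYTC-2 (AT4G10040) encodes cytochrome c, the electron carrier of mitochondria. It measured 6.59, 7.04 and 7.34 in hd2c, 6.66, 6.82 and 6.82 in brm, 7.53, 7.15 and 7.47 in double mutant plants, and 6.03, 6.18 and 6.24 in WT in heat, and 4.68, 4.83 and 4.73 in hd2c, 4.58, 4.85 and 4.51 in brm, 4.60, 4.43 and 4.10 in double mutant plants, and 4.41, 4.57 and 4.50 in WT in control. No mutant heat array overlapped those of WT. Its level in heat exceeded that of WT by 0.84 ± 0.16 (adjusted p = 0.0133) in hd2c, 0.62 ± 0.16 (adjusted p = 0.0235) in brm and 1.23 ± 0.16 (adjusted p = 1.78e-05) in the double mutant. The call in the double mutant held in all 34 alternatives. That in hd2c was lost without WT heat replicate 1, hd2c heat replicate 2 or hd2c heat replicate 3, and that in brm without WT heat replicate 1 or 2 or brm heat replicate 2 or 3 (adjusted p up to 0.263 in hd2c and 0.107 in brm over all alternatives).

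FIB (AT4G04020), a fibrillin, is a lipid-droplet protein of plastids. Its heat arrays read 10.92, 11.44 and 11.48 in hd2c, 10.89, 10.99 and 10.96 in brm, 11.43, 11.36 and 11.55 in double mutant plants, and 10.91, 10.93 and 10.94 in WT, and its control arrays 8.40 to 9.25. The double mutant lay above WT without overlap, by 0.52 ± 0.14 (adjusted p = 0.0209), a call lost without WT heat replicate 1, 2 or 3 or double mutant heat replicate 3 (adjusted p up to 0.0894 over all alternatives). In brm the level was that of WT within the error, with a difference of 0.02 ± 0.14.

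BGAL16 (AT1G77410) is a beta-galactosidase of the family that trims cell wall sugars. Its levels in heat were 5.99, 6.22 and 6.18 in hd2c, 5.77, 6.15 and 6.04 in brm, 6.37, 6.40 and 6.77 in double mutant plants, and 5.46, 5.74 and 5.99 in WT, with control levels from 3.35 to 3.98. The double mutant exceeded WT by 0.78 ± 0.16 (adjusted p = 0.00218), a call that held in all 34 alternatives, while hd2c at 0.40 ± 0.16 and brm at 0.26 ± 0.16 did not pass.

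AT2G26690, annotated as NPF6.2 of the NRT1/PTR transporter family, differed the other way in brm. Heat levels were 10.01, 10.57 and 10.49 in hd2c, 9.44, 9.62 and 9.49 in brm, 10.17, 10.12 and 10.18 in double mutant plants, and 9.95, 10.13 and 10.12 in WT. Control levels were 8.86, 8.64 and 8.42 in hd2c, 8.10, 8.10 and 8.17 in brm, 8.29, 8.19 and 8.05 in double mutant plants, and 8.63, 8.95 and 8.80 in WT. All brm heat arrays lay below all other heat arrays. In control all brm arrays also lay below all WT arrays, so the lower level in brm was not confined to heat. Relative to WT in heat brm was lower, with a difference of −0.55 ± 0.14 (adjusted p = 0.0176), and the double mutant exceeded brm by 0.64 ± 0.14 (adjusted p = 0.00724). Against WT the call in brm was lost without WT heat replicate 2 or 3 or brm heat replicate 1 or 3 (adjusted p up to 0.0726 over all alternatives). In control the double mutant was lower than WT, with a difference of −0.61 ± 0.14 (adjusted p = 0.0117), a call lost without WT control replicate 2 or 3 or double mutant control replicate 3 (adjusted p up to 0.0806 over all alternatives).

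NVL (AT1G08300), a relative of the vein-patterning gene NO VEIN, and CUTA (AT2G33740), a relative of a bacterial ion-tolerance protein, showed no called difference in heat. NVL had 5.28, 6.11 and 5.72 in hd2c, 5.21, 5.24 and 4.74 in brm, 5.45, 5.76 and 5.77 in double mutant plants, and 5.20, 5.17 and 5.27 in WT in heat. Its hd2c and double mutant arrays lay above those of WT, but the differences of 0.49 ± 0.19 and 0.45 ± 0.19 did not pass. CUTA had 7.51, 7.30 and 7.63 in hd2c, 7.43, 7.10 and 7.38 in brm, 7.18, 7.09 and 7.62 in double mutant plants, and 7.33, 7.33 and 7.50 in WT in heat, and its differences from WT were 0.09 ± 0.15 for hd2c, −0.08 ± 0.15 for brm and −0.09 ± 0.15 for the double mutant. Its heat arrays overlapped between each mutant and WT.

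The 11 largest mean responses belonged to genes without a symbol in the annotation used here. AT5G12110 had the largest mean response, and it was nearly the same in every genotype: 5.87 in hd2c, 6.03 in brm, 5.75 in the double mutant and 5.83 in WT, 57.0-fold in WT. Its heat levels were 10.78, 11.06 and 11.19 in hd2c, 11.07, 11.14 and 11.11 in brm, 10.70, 10.90 and 11.02 in double mutant plants, and 10.15, 10.37 and 10.65 in WT. Its control levels were 4.80, 5.01 and 5.60 in hd2c, 4.63, 5.30 and 5.31 in brm, 4.73, 5.17 and 5.46 in double mutant plants, and 4.65, 4.48 and 4.55 in WT. All WT heat arrays lay below all mutant heat arrays, and WT also had the lowest control mean. The difference in heat passed the test in brm, at 0.72 ± 0.21 (adjusted p = 0.0469), but was lost when any 1 of 13 arrays was left out (adjusted p up to 0.197 over all alternatives). These were all 3 WT control, all 3 brm heat, WT heat replicates 1 and 2, hd2c control and heat replicate 2, double mutant control replicate 2, and double mutant heat replicates 2 and 3.

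AT1G72660 came next, with responses of 6.07 in hd2c, 5.71 in brm, 6.05 in the double mutant and 5.61 in WT. In heat it read 7.84, 8.24 and 8.75 in hd2c, 7.72, 8.67 and 8.36 in brm, 8.31, 8.58 and 8.70 in double mutant plants, and 7.13, 7.83 and 7.60 in WT, against 1.73 to 3.02 over the control arrays. Its double mutant exceeded WT by 1.01 ± 0.27 (adjusted p = 0.018), a call lost without WT heat replicate 1 or double mutant heat replicate 3 (adjusted p up to 0.115 over all alternatives).

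AT5G25450 and AT1G30070 had clearly lower heat levels in WT than in all mutants. For AT5G25450 the heat levels were 7.39, 8.03 and 8.66 in hd2c, 7.53, 8.16 and 8.19 in brm, 7.78, 8.36 and 8.54 in double mutant plants, and 6.02, 6.77 and 6.90 in WT, with controls from 1.15 to 2.31, and its responses were 5.96 in hd2c, 6.14 in brm, 6.43 in the double mutant and 4.47 in WT. Against WT in heat it was higher by 1.47 ± 0.30 (adjusted p = 0.0207) in hd2c, 1.40 ± 0.30 (adjusted p = 0.00611) in brm and 1.66 ± 0.30 (adjusted p = 0.000793) in the double mutant. Without WT heat replicate 1 both single-mutant calls were lost, and that of hd2c also without hd2c heat replicate 2 or 3 (adjusted p up to 0.246 in hd2c and 0.056 in brm over all alternatives).

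AT1G30070 measured 8.65, 9.25 and 9.49 in hd2c, 8.92, 9.19 and 9.13 in brm, 8.93, 9.16 and 9.23 in double mutant plants, and 7.57, 8.05 and 7.72 in WT in heat. Its control arrays measured 4.19, 4.35 and 4.46 in hd2c, 4.63, 4.29 and 4.59 in brm, 4.47, 4.69 and 4.38 in double mutant plants, and 4.56, 4.24 and 4.53 in WT. The 9 mutant heat arrays lay at least as high as 8.65 and the WT arrays no higher than 8.05. Its excess over WT was 1.35 ± 0.18 (adjusted p = 0.000606) in hd2c, 1.30 ± 0.18 (adjusted p = 4.93e-05) in brm and 1.33 ± 0.18 (adjusted p = 2.07e-05) in the double mutant, nearly equal in size. Leaving out any 1 array ended none of these 3 calls, but that of hd2c was lost in a fit of only the groups compared (adjusted p = 0.18). AT3G07090, among the genes with the smallest adjusted p, was also above WT in heat. The difference was 1.18 ± 0.20 (adjusted p = 0.0066) in hd2c, 1.08 ± 0.20 (adjusted p = 0.00131) in brm and 1.33 ± 0.20 (adjusted p = 9.87e-05) in the double mutant. Its hd2c call was lost in 3 of the 34 alternatives (adjusted p up to 0.244), and the other calls held in all.

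AT5G54165, AT4G23493, AT3G53830 and AT2G30480 also had a higher mean in heat in each mutant than in WT. AT5G54165 read 8.61, 10.34 and 10.17 in hd2c, 9.02, 9.52 and 9.43 in brm, 9.89, 9.96 and 10.44 in double mutant plants, and 7.31, 8.98 and 8.74 in WT. Replicate 1 was low in hd2c and in WT, and the double mutant exceeded WT by 1.75 ± 0.42 (adjusted p = 0.00787), lost without WT heat replicate 1 (adjusted p = 0.0773). AT4G23493 read 5.28, 6.31 and 6.69 in hd2c, 5.46, 6.41 and 6.24 in brm, 4.68, 5.78 and 5.75 in double mutant plants, and 4.18, 5.03 and 4.57 in WT in heat. In brm it was higher than in WT by 1.44 ± 0.31 (adjusted p = 0.00568), a call that held in all 34 alternatives. In hd2c it exceeded WT by 1.51 ± 0.31 (adjusted p = 0.0207). That call was lost without WT heat replicate 1 or 3 or hd2c heat replicate 2 or 3 (adjusted p up to 0.258 over all alternatives). In the double mutant the difference of 0.81 ± 0.31 missed the threshold (adjusted p = 0.123).

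For AT3G53830 the heat arrays were 6.62, 7.16 and 7.51 in hd2c, 6.72, 6.88 and 6.98 in brm, 6.91, 6.96 and 6.93 in double mutant plants, and 5.57, 6.01 and 6.07 in WT, and the control arrays 3.59, 3.15 and 3.14 in hd2c, 2.86, 2.99 and 2.53 in brm, 2.07, 2.73 and 2.60 in double mutant plants, and 2.95, 3.20 and 2.92 in WT. Each mutant was above WT without overlap, by 1.21 ± 0.20 (adjusted p = 0.00664) in hd2c, 0.98 ± 0.20 (adjusted p = 0.00373) in brm and 1.05 ± 0.20 (adjusted p = 0.00123) in the double mutant, while the double mutant also had the lowest mean in control. The hd2c call was lost without WT heat replicate 1 or hd2c heat replicate 2 (adjusted p up to 0.219 over all alternatives). AT2G30480 measured 7.39, 7.86 and 8.03 in hd2c, 7.19, 7.61 and 7.32 in brm, 7.32, 7.67 and 7.51 in double mutant plants, and 6.58, 7.11 and 6.97 in WT in heat. Its excess over WT was 0.88 ± 0.17 (adjusted p = 0.0157) in hd2c and 0.61 ± 0.17 (adjusted p = 0.0236) in the double mutant, with 0.49 ± 0.17 in brm (adjusted p = 0.123). Both calls were lost without WT heat replicate 1, that of hd2c also without hd2c heat replicate 2 or 3, and that of the double mutant also without its heat replicate 2 or 3 (adjusted p up to 0.263 in hd2c and 0.164 in the double mutant over all alternatives).

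AT1G71000 varied strongly between replicates, with 5.53, 7.23 and 7.70 in hd2c, 6.49, 7.02 and 6.64 in brm, 5.89, 6.48 and 6.78 in double mutant plants, and 5.11, 7.17 and 6.37 in WT in heat and 1.78 to 2.81 in control. Replicate 1 was the lowest heat array in every genotype, each mutant overlapped WT and no difference in heat passed.

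**Figure D5:**
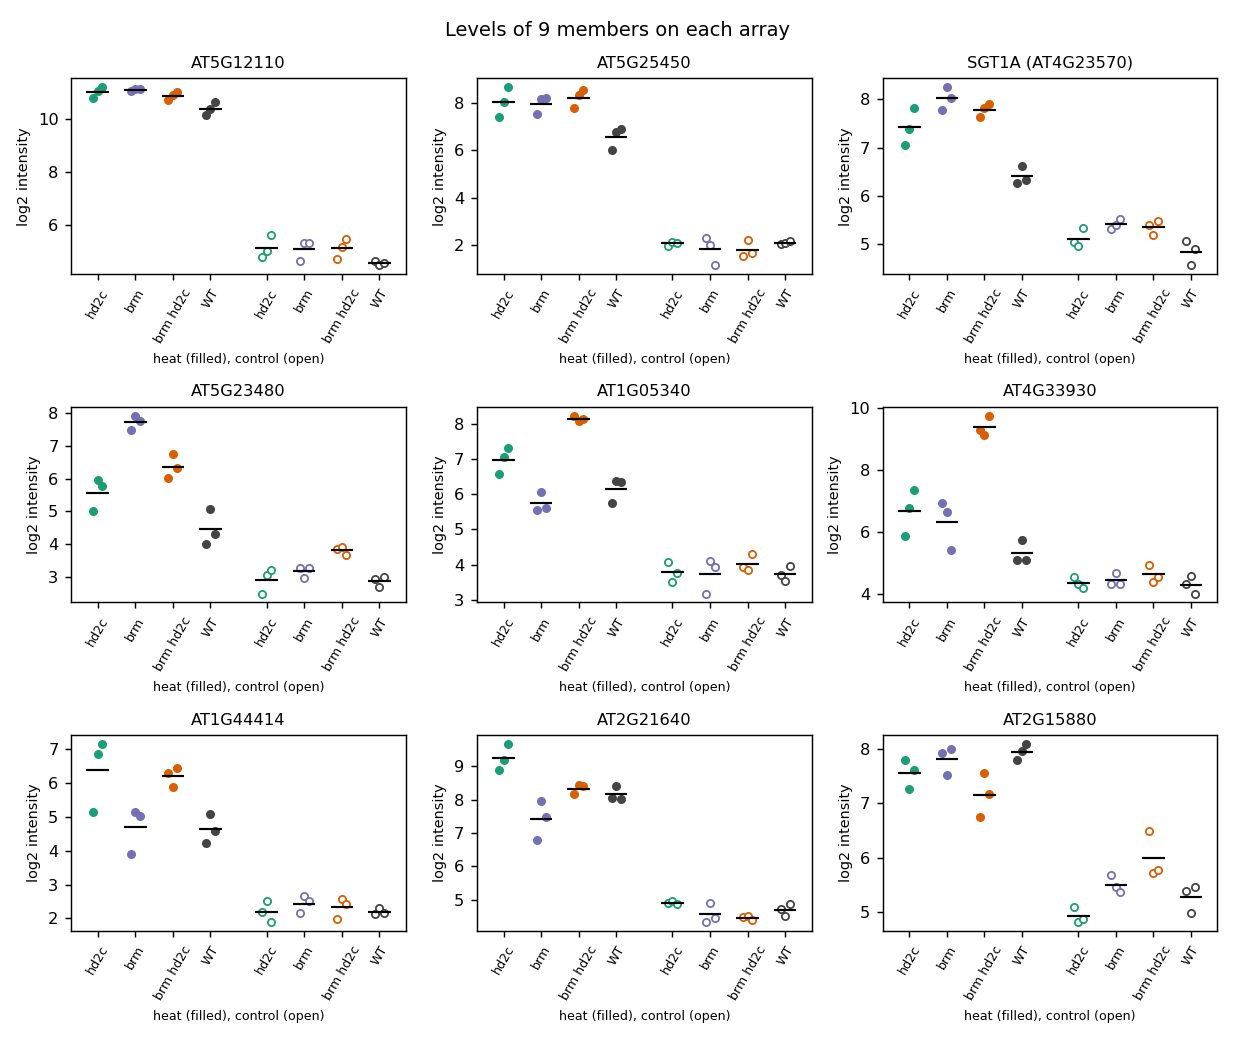
Log2 intensity of 9 of the genes on each of the 24 arrays, heat filled and control open. Points are arrays and bars are group means (n = 3). The panels run from AT5G12110, with responses of 5.75 to 6.03 in all genotypes, through genes highest in brm (AT5G23480) or in the double mutant (AT1G05340, AT4G33930), to AT2G15880, lower in heat in the double mutant than in WT.

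Single genes departed from the common pattern. AT5G23480 was highest in brm. It read 5.02, 5.95 and 5.77 in hd2c, 7.50, 7.92 and 7.75 in brm, 6.01, 6.77 and 6.33 in double mutant plants, and 4.01, 5.07 and 4.32 in WT in heat. In control it read 2.49, 3.05 and 3.20 in hd2c, 3.27, 2.97 and 3.26 in brm, 3.86, 3.90 and 3.67 in double mutant plants, and 2.93, 2.68 and 2.99 in WT. All brm heat arrays lay above those of every other genotype. Over WT the excess was 3.26 ± 0.25 (adjusted p = 1.44e-08) in brm and 1.90 ± 0.25 (adjusted p = 2.07e-05) in the double mutant, and the double mutant was below brm, with a difference of −1.36 ± 0.25 (adjusted p = 0.00214). Each of these 3 calls held in all 34 alternatives. The hd2c difference from WT of 1.11 ± 0.25 (adjusted p = 0.0415) was lost when any 1 of 16 arrays was left out (adjusted p up to 0.332 over all alternatives), and kept only without hd2c control replicate 1 or 3, WT heat replicate 2, hd2c heat replicate 1, brm heat replicate 1 or 2, or double mutant heat replicate 1 or 2.

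AT5G62730 had its highest heat means in brm and the double mutant. Its heat levels were 6.27, 7.75 and 7.29 in hd2c, 8.02, 8.01 and 7.69 in brm, 7.71, 8.04 and 7.91 in double mutant plants, and 5.64, 6.02 and 5.82 in WT. Its control levels were 3.89, 4.22 and 3.79 in hd2c, 4.64, 4.20 and 3.85 in brm, 5.03, 5.04 and 4.63 in double mutant plants, and 3.71, 3.79 and 3.74 in WT. In heat brm and the double mutant exceeded WT by nearly the same amount, 2.08 ± 0.25 (adjusted p = 1.07e-05) and 2.07 ± 0.25 (adjusted p = 6.55e-06). It was also higher in the double mutant in control, by 1.16 ± 0.25 (adjusted p = 0.00829), and these 3 calls held in every one of the 34 alternatives. In hd2c the excess over WT in heat was 1.28 ± 0.25 (adjusted p = 0.0152), a call lost without WT heat replicate 1 or 3 or hd2c heat replicate 2 or 3 (adjusted p up to 0.30 over all alternatives).

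AT4G30490 and AT1G35660 likewise had their highest heat mean in brm, but both were also called above WT in hd2c and in the double mutant. AT4G30490 had 8.10, 8.60 and 8.70 in hd2c, 8.92, 9.04 and 9.22 in brm, 8.61, 8.66 and 8.38 in double mutant plants, and 7.53, 8.10 and 7.81 in WT in heat, with controls from 6.49 to 6.86. Its brm arrays lay above all other heat arrays, and brm exceeded WT by 1.25 ± 0.15 (adjusted p = 1.15e-05). AT4G30490 also exceeded WT in hd2c, by 0.65 ± 0.15 (adjusted p = 0.0453), and in the double mutant, by 0.74 ± 0.15 (adjusted p = 0.00221). The hd2c call was lost when any 1 of 18 arrays was left out (adjusted p up to 0.369 over all alternatives). That of the double mutant was lost in a fit of only the groups compared (adjusted p = 0.0517). The double mutant minus brm, −0.51 ± 0.15, missed the threshold (adjusted p = 0.053). AT1G35660 had 6.98, 7.60 and 7.52 in hd2c, 7.48, 7.79 and 7.85 in brm, 6.97, 7.30 and 7.11 in double mutant plants, and 6.27, 6.63 and 6.52 in WT in heat, where brm exceeded WT by 1.23 ± 0.16 (adjusted p = 3.53e-05). It also exceeded WT in hd2c, by 0.90 ± 0.16 (adjusted p = 0.0103), and in the double mutant, by 0.65 ± 0.16 (adjusted p = 0.011). Without WT heat replicate 1 these 2 calls were lost, and that of hd2c also without hd2c heat replicate 2 or 3. Over all alternatives their adjusted p reached 0.241 and 0.0717. The double mutant was below brm, with a difference of −0.58 ± 0.16 (adjusted p = 0.0397), a call lost in 8 alternatives (adjusted p up to 0.177). AT1G55530, named after its values were seen, read 6.34, 6.42 and 6.76 in hd2c, 7.12, 7.21 and 7.11 in brm, 6.51, 6.75 and 6.30 in double mutant plants, and 6.06, 6.45 and 6.53 in WT in heat. In brm it exceeded WT by 0.80 ± 0.17 (adjusted p = 0.00456), while hd2c and the double mutant, at 0.16 ± 0.17 and 0.18 ± 0.17, did not pass.

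AT4G33930, AT1G05340 and AT2G32200 were highest in the double mutant. For AT4G33930 the heat levels were 5.89, 6.79 and 7.37 in hd2c, 6.94, 6.63 and 5.41 in brm, 9.29, 9.13 and 9.74 in double mutant plants, and 5.09, 5.76 and 5.12 in WT. The control levels were 4.57, 4.34 and 4.21 in hd2c, 4.33, 4.70 and 4.35 in brm, 4.95, 4.41 and 4.57 in double mutant plants, and 4.34, 4.58 and 4.03 in WT. The double mutant lay above every other heat array, by 4.06 ± 0.33 (adjusted p = 4.56e-08) over WT, 2.70 ± 0.33 (adjusted p = 1.66e-05) over hd2c and 3.05 ± 0.33 (adjusted p = 7.41e-06) over brm. Its WT response of 1.01 is close to the threshold that chose the genes.

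AT1G05340 read 6.57, 7.06 and 7.32 in hd2c, 5.54, 6.07 and 5.60 in brm, 8.23, 8.07 and 8.13 in double mutant plants, and 5.75, 6.37 and 6.35 in WT in heat. In control it read 4.09, 3.52 and 3.78 in hd2c, 3.18, 4.11 and 3.93 in brm, 3.93, 3.85 and 4.29 in double mutant plants, and 3.69, 3.55 and 3.96 in WT. The double mutant exceeded WT by 1.99 ± 0.23 (adjusted p = 4.44e-06), hd2c by 1.16 ± 0.23 (adjusted p = 0.00328) and brm by 2.40 ± 0.23 (adjusted p = 3.23e-06), with no overlap. AT2G32200 read 7.87, 8.68 and 8.55 in hd2c, 6.85, 7.46 and 6.58 in brm, 9.51, 8.82 and 9.70 in double mutant plants, and 6.31, 7.11 and 6.27 in WT in heat and 5.08, 4.91 and 5.55 in hd2c, 2.90, 4.85 and 5.35 in brm, 3.95, 4.47 and 4.18 in double mutant plants, and 4.05, 4.57 and 5.0 in WT in control. There the double mutant exceeded WT by 2.78 ± 0.43 (adjusted p = 0.000122) and brm by 2.38 ± 0.43 (adjusted p = 0.00159). Its hd2c arrays lay between, at 1.81 ± 0.43 (adjusted p = 0.0524) over WT. The calls of AT4G33930, AT1G05340 and AT2G32200 given in these sentences held in all 34 alternatives.

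In AT1G44414, AT1G48720, AT1G52870 and AT5G11680, grouped after their values were seen, the heat means of hd2c and the double mutant lay above WT and brm had no called difference from WT. AT1G44414 had 5.15, 6.86 and 7.15 in hd2c, 3.90, 5.13 and 5.03 in brm, 6.31, 5.88 and 6.46 in double mutant plants, and 4.23, 5.09 and 4.57 in WT in heat, and its control arrays lay at 1.89 to 2.67. In the double mutant it exceeded WT by 1.58 ± 0.37 (adjusted p = 0.00688), and in hd2c by 1.76 ± 0.37 (adjusted p = 0.0221), with 0.06 ± 0.37 in brm. The hd2c call was lost without WT heat replicate 1 or 3 or hd2c heat replicate 2 or 3 (adjusted p up to 0.313 over all alternatives). AT1G48720 was the most variable of them, at 3.99, 7.29 and 6.87 in hd2c, 4.79, 2.07 and 4.31 in brm, 7.01, 6.80 and 7.42 in double mutant plants, and 4.67, 4.91 and 3.33 in WT. Its hd2c difference from WT of 1.75 ± 0.76 did not pass (adjusted p = 0.337), and 1 hd2c array lay within the WT range. Its double mutant arrays lay close together and above WT, by 2.77 ± 0.76 (adjusted p = 0.0214), a call lost without WT heat replicate 3 or double mutant heat replicate 1 or 3 (adjusted p up to 0.112 over all alternatives).

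AT1G52870 measured 8.68, 8.97 and 9.27 in hd2c, 7.84, 8.14 and 8.01 in brm, 8.80, 8.97 and 8.91 in double mutant plants, and 8.14, 8.35 and 8.09 in WT in heat. It was higher than WT by 0.78 ± 0.14 (adjusted p = 0.0103) in hd2c and 0.70 ± 0.14 (adjusted p = 0.0018) in the double mutant, and the double mutant exceeded brm by 0.89 ± 0.14 (adjusted p = 0.000465). AT5G11680 measured 8.37, 8.87 and 9.14 in hd2c, 7.66, 7.97 and 7.72 in brm, 8.79, 8.83 and 8.85 in double mutant plants, and 8.03, 8.07 and 8.16 in WT. Its excess over WT was 0.71 ± 0.15 (adjusted p = 0.0211) in hd2c and 0.73 ± 0.15 (adjusted p = 0.00188) in the double mutant, and over brm 1.04 ± 0.15 (adjusted p = 0.000164) in the double mutant. The hd2c calls of both genes were lost without WT heat replicate 1, hd2c heat replicate 2 or hd2c heat replicate 3, and that of AT5G11680 also without WT heat replicate 2 or 3 (adjusted p up to 0.258 for AT1G52870 and 0.339 for AT5G11680 over all alternatives). Their double mutant calls held in all 34 alternatives.

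AT2G21640 and AT1G73750 were lowest in brm. AT2G21640 had 8.89, 9.20 and 9.66 in hd2c, 6.79, 7.96 and 7.48 in brm, 8.17, 8.43 and 8.39 in double mutant plants, and 8.06, 8.40 and 8.02 in WT in heat and 4.90, 4.96 and 4.87 in hd2c, 4.33, 4.91 and 4.45 in brm, 4.48, 4.51 and 4.38 in double mutant plants, and 4.72, 4.51 and 4.86 in WT in control. Its brm arrays lay below all other heat arrays. Against WT it was higher in hd2c by 1.09 ± 0.22 (adjusted p = 0.018) and lower in brm, where the difference was −0.75 ± 0.22 (adjusted p = 0.0485). The brm call was lost when any 1 of 19 arrays was left out (adjusted p up to 0.297 over all alternatives), and kept only without hd2c heat replicate 1 or 3, brm control replicate 2, brm heat replicate 2 or double mutant heat replicate 1. The hd2c call was lost without WT heat replicate 1 or 3 or hd2c heat replicate 2 or 3 (adjusted p up to 0.219 over all alternatives). AT1G73750, named after its values were seen, had 8.95, 9.29 and 9.26 in hd2c, 8.22, 8.48 and 8.30 in brm, 9.13, 9.24 and 9.35 in double mutant plants, and 8.88, 9.19 and 8.95 in WT in heat. There brm was below WT, with a difference of −0.67 ± 0.13 (adjusted p = 0.00158), and the double mutant above brm by 0.91 ± 0.13 (adjusted p = 0.000129), in all 34 alternatives, and in control, where it read 7.19, 7.33 and 7.26 in brm, and 7.61, 7.53 and 7.74 in WT, brm was also the lower one.

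Both genes with a lower level in the double mutant than in WT in heat were named after their values were seen. AT2G15880 had 7.79, 7.26 and 7.61 in hd2c, 7.92, 7.52 and 8.00 in brm, 6.75, 7.55 and 7.17 in double mutant plants, and 7.80, 7.95 and 8.08 in WT in heat. Its control levels were 5.09, 4.82 and 4.87 in hd2c, 5.68, 5.46 and 5.37 in brm, 6.49, 5.72 and 5.77 in double mutant plants, and 5.38, 4.99 and 5.47 in WT. The double mutant was below WT in heat, with a difference of −0.78 ± 0.21 (adjusted p = 0.0177), and highest in control, and its response was the smallest: 2.63 in hd2c, 2.31 in brm, 1.17 in the double mutant and 2.67 in WT. The call in heat was lost without WT heat replicate 2 or 3 or double mutant heat replicate 1 or 3 (adjusted p up to 0.123 over all alternatives). AT1G27420 had 4.53, 4.74 and 4.60 in hd2c, 4.37, 4.34 and 4.48 in brm, 3.85, 4.22 and 4.02 in double mutant plants, and 4.51, 4.59 and 4.50 in WT in heat, where the double mutant was below WT, with a difference of −0.50 ± 0.14 (adjusted p = 0.0216). That call was lost without WT heat replicate 1 or 2 or double mutant heat replicate 1 or 3 (adjusted p up to 0.114 over all alternatives). Its neighbour AT1G27410 had no called difference in heat, at 0.22 ± 0.18 for hd2c, −0.18 ± 0.18 for brm and −0.17 ± 0.18 for the double mutant.

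Between the double mutant and hd2c, AT4G12735 was lower in the double mutant and AT4G23680, AT2G07667 and AT2G07722 were higher, all named after their values were seen. AT4G12735 read 6.21, 5.97 and 6.54 in hd2c, 3.19, 4.75 and 4.10 in brm, 3.70, 4.74 and 5.54 in double mutant plants, and 4.11, 4.16 and 4.28 in WT in heat. Its hd2c arrays lay above all other heat arrays, 2.06 ± 0.33 (adjusted p = 0.005) over WT, and the double mutant was below hd2c, with a difference of −1.58 ± 0.33 (adjusted p = 0.00464), a call lost in a fit of only the groups compared (adjusted p = 0.0815). Without WT heat replicate 1 the call against WT was lost (adjusted p = 0.0522). AT4G23680 read 7.29, 6.55 and 7.24 in hd2c, 7.92, 7.69 and 7.82 in brm, 8.66, 8.12 and 8.18 in double mutant plants, and 6.94, 7.33 and 7.40 in WT, with the double mutant above hd2c by 1.29 ± 0.23 (adjusted p = 0.00122) and above WT by 1.1 ± 0.23 (adjusted p = 0.0031). AT2G07667 read 5.88, 6.09 and 6.56 in hd2c, 6.44, 6.61 and 6.60 in brm, 6.95, 7.21 and 7.30 in double mutant plants, and 6.46, 6.47 and 6.19 in WT, with the double mutant above hd2c by 0.97 ± 0.14 (adjusted p = 0.000159). AT2G07722 read 10.46, 10.49 and 10.74 in hd2c, 10.90, 10.89 and 10.82 in brm, 11.56, 11.22 and 11.29 in double mutant plants, and 10.52, 10.53 and 10.61 in WT, with a difference of 0.79 ± 0.16 (adjusted p = 0.00383), a call that such a fit also lost (adjusted p = 0.056). Both AT2G07 loci lie near each other on chromosome 2, in a stretch that in Col-0 carries a copy of mitochondrial DNA, so their probe sets may not tell nuclear from mitochondrial transcripts.

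Without stress hd2c and the double mutant were each compared with WT over the list. In hd2c control no gene of the list was called by limma, where 1 gene of all 16552 (0.00604%) was. An unadjusted p under 0.05 was found for 4 of the 105 genes, and for 418 of all genes (2.53%). Over all genes 3.12% were called in double mutant control, 1.53% higher and 1.59% lower than in WT. Of the list 6 genes (5.71%) were called there, 5 higher and 1 lower. Besides Cpn60beta2, AT5G62730 and AT2G26690, these were AT4G32480 at 0.66 ± 0.15, AT4G33420 at 0.79 ± 0.20 and AT5G23480 at 0.94 ± 0.25 (adjusted p = 0.0158, 0.025 and 0.0396). AT4G32480 read 4.65, 5.09 and 4.78 in double mutant plants, and 4.07, 4.39 and 4.08 in WT. AT4G33420 read 5.02, 5.13 and 4.55 in double mutant plants, and 3.82, 4.28 and 4.24 in WT. The call of AT4G32480 was lost without WT control replicate 1 or 3 or double mutant control replicate 2, that of AT4G33420 without WT control replicate 1 or 3 or double mutant control replicate 1 or 2, and that of AT5G23480 without any 1 of the 6 arrays compared (adjusted p up to 0.119, 0.163 and 0.155 over all alternatives). An unadjusted p under 0.05 was found for 19 of the 105 genes and 2047 of all genes (12.4%). With double mutant control replicate 1, 2 or 3 left out the count of 6 was 3, 2 and 3, and with WT control replicate 1 or 3 left out it was 2 and 1. For brm the level in control was bounded by the choice of genes, and the differences from WT ran from −0.80 to 0.65.

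The responses themselves, heat minus control in a mutant less the same in WT, were also set side by side. The choice of genes put a floor under each of these responses and bounded the control level of brm, so the counts and values here are a description, and nothing is read from them. In hd2c no gene of the list was called by limma, 52 had an unadjusted p under 0.05, and the median difference was 0.55. No gene of all 16552 (0.0%) was called and 1105 (6.68%) had such a p. Without hd2c heat replicate 1, 18 of the 105 were called. In brm 6 were called, all with a larger response than in WT, where 0.187% of all genes were called (0.151% larger, 0.0362% smaller), and the median difference was 0.43. AT5G23480 led with 2.96 ± 0.36, followed by AT4G30490 with 1.45 ± 0.21 and AT1G35660 with 1.44 ± 0.23. The others were AT1G30070 with 1.24 ± 0.25, AT1G55530 with 1.19 ± 0.24 and DER1 with 1.13 ± 0.21. The first 3 of these calls held in all 34 alternatives, while the other 3 were lost, and the count was 3, without WT control replicate 3, brm control replicate 2 or 3, WT heat replicate 1 or brm heat replicate 2 or 3. AT1G30070 also lost its call without WT control replicate 1, hd2c control replicate 2 or WT heat replicate 3, AT1G55530 without WT control replicate 1 or 2 or brm heat replicate 1, and DER1 without WT control replicate 2. The count was 14 and 10 without hd2c heat replicate 1 and 3.

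In the double mutant 19 genes were called, 18 with a response larger than that of WT and 1 with a smaller one, where 1.47% of all genes were called (1.15% larger, 0.32% smaller), and the median difference was 0.59. The largest were AT4G33930 with 3.73 ± 0.46, AT2G32200 with 3.12 ± 0.60 and AT5G25450 with 1.96 ± 0.43. Among the genes with a symbol CYTC-2 had 1.35 ± 0.23, BOB1 1.24 ± 0.27 and BGAL16 1.00 ± 0.23. The smaller response was that of AT2G15880, with −1.50 ± 0.30. Without WT heat replicate 1 the count was 12, and without double mutant heat replicate 3 it was 11. The calls of AT4G33930, AT2G32200, CYTC-2 and AT2G15880 held in all 34 alternatives. AT5G25450, BGAL16 and BOB1 each lost theirs without WT heat replicate 1 or double mutant heat replicate 3. AT5G25450 did so also without WT control replicate 3 or double mutant control replicate 1 or 3, BGAL16 without WT control replicate 2 or double mutant control replicate 1 or 2, and BOB1 without WT control replicate 3.

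Over the 10 comparisons, 73 of the 105 genes were called in at least 1 and 32 in none, where 15.1% of all genes were called in at least 1. The 10 include the response differences, whose values the choice of genes used, so this count is a description and nothing is read from it. Lists of genes that work beside these were also looked at in the heat responses. Of 12 genes for autophagy, which delivers damaged cell parts to the vacuole, 9 were measured and none is among the 105. Called higher in heat were 4 in hd2c, 4 in brm, 4 in the double mutant and 2 in WT, and none was lower. Over all genes 8.88%, 7.28%, 9.38% and 5.80% were called higher, in the same order. ATG8C, ATG8G and APG8H were called in no genotype. ATG8H, a ubiquitin-like protein that coats autophagosomes, rose by 1.22 ± 0.16 in hd2c, 0.72 ± 0.16 in brm, 1.38 ± 0.16 in the double mutant and 0.56 ± 0.16 in WT (limma adjusted p = 6.97e-06, 0.00271, 1.05e-06 and 0.0229). ATG8E rose by 0.71 ± 0.23 for hd2c, 1.22 ± 0.23 for brm and 0.77 ± 0.23 for the double mutant (limma adjusted p = 0.029, 0.00051 and 0.0159), and its difference of 0.60 ± 0.23 in WT did not pass. DREB2C, a transcription factor that can activate a heat shock factor gene, was the 1 gene measured of 18 heat shock factors and coactivators. It rose by 0.78 ± 0.16 in hd2c and 0.82 ± 0.16 in the double mutant (limma adjusted p = 0.00122 and 0.000652), with 0.27 ± 0.16 in brm and 0.38 ± 0.16 in WT, which did not pass.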

How the data were processed

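Total RNA of 24 plant samples, in 8 groups of 3, was labelled with biotin and hybridised to Affymetrix arrays. The deposited values are log2 intensities of 38408 probe sets, made by the authors with RMA and Partek per the submitters' processing notes, which give no versions, settings or annotation build. Array medians lay between 3.42 and 3.65, and the number of arrays limits the precision.

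A platform table names 1 gene for 16746 probe sets, several for 758 and none for 20904. The probe set with the highest mean stood for each gene, which left 16552 genes, of which 16512 matched an annotation table of assembly TAIR10.1, used for names and neighbours only. In limma 3.58.1 (R 4.3.3) all 24 arrays entered a linear model with 1 mean per group, empirical Bayes moderation and 16 residual degrees of freedom, and 10 contrasts were tested, two-sided, with Benjamini-Hochberg adjustment over all 16552 genes. A gene was called at an adjusted p under 0.05. Differences are log2 with the moderated standard error after ±, n = 3 per group. The SE and p pool the spread over all groups. Every adjusted p is limma's. The script was tested on simulated data. Python 3.11.15 and matplotlib 3.10.9 drew the plots.

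Other settings were 3 ways of scaling, a trend of variance with intensity, no moderation, array weights, only the groups compared, the replicate number as a block, leaving out the dimmest genes, the mean of probe sets and leaving out each array, 34 in all, and 0.8 and 1.2 were tried as response thresholds. Values were set out for the 12 genes with the largest mean response, 10 further called genes with the smallest adjusted p and up to 4 of each gene list. Genes with a symbol and those marked in the text were added after their values were seen. The genes and all 13 lists (150 genes) were chosen with earlier results of these data known. Lists of BAG domain proteins, galactinol and raffinose synthesis, SR splicing factors, abscisic acid response and flower markers had no named probe set. Of 10 reactive oxygen scavengers 1 was measured, CCS, which was not called in the heat response of any genotype. Deviations from group means correlated between arrays of equal replicate number with r from −0.22 to 0.41 over 84 pairs, 23 of them over 0.1. The median r was 0.03 there and −0.02 between arrays of other numbers. The main fit did not take the numbers as pairs, and a fit with the replicate number as a block is given beside it. Promoter and protein sequences were not used here.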

Additional observations from a re-analysis of the deposited data

Results flagged for a closer look

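Heat responses that differed from that of WT by the test of the difference itself (limma, adjusted p under 0.05) were found for 6 of the genes in brm and for 19 in the double mutant. In brm the differences were 2.96 for AT5G23480, 1.45 for AT4G30490, 1.44 for AT1G35660, 1.24 for AT1G30070, 1.19 for AT1G55530 and 1.13 for AT4G29330 (DER1), all with the larger response in brm. The choice of the genes used these responses, so the counts and values in this section are a description, and nothing is read from them.

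In the double mutant 14 of the 19 are set out here. Those of genes without a symbol were 3.73 for AT4G33930, 3.12 for AT2G32200, 1.96 for AT5G25450, 1.70 for AT1G05340, 1.61 for AT3G53830, 1.26 for AT1G30070, 1.1 for AT2G30480, 0.98 for AT5G11680, 0.96 for AT1G52870 and 0.85 for AT4G30490. Genes with a symbol had 1.35 for AT4G10040 (CYTC-2), 1.24 for AT5G53400 (BOB1) and 1.00 for AT1G77410 (BGAL16). Of these calls, that of AT4G30490 was lost in 21 of the 34 alternatives, among them any of 18 arrays left out (adjusted p up to 0.142). That of AT2G30480 was lost without WT control replicate 3, double mutant control replicate 2, WT heat replicate 1 or double mutant heat replicate 3 (adjusted p up to 0.0741). AT2G15880 had −1.50, the smaller response in the double mutant.

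A signal of the same kind appeared in probe sets that the comparisons do not use. Of 20904 probe sets without a gene name, 136 (0.651%) met the same thresholds of response and brm control level, and of 758 probe sets with several genes 7 (0.923%) did. For genes with a name of their own it was 123 of 16552 (0.743%). Among the unnamed probe sets that met the bound on the brm control level, the largest lowest response was 8.18. Of these, 82 were lower in heat by at least 1 in all 4 genotypes. Control samples cannot give a background for these counts, since the thresholds are themselves differences from control.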

How the results depend on the processing

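With 1 array left out, the number of the 105 genes called ran from 1 to 49 for hd2c against WT in heat, 21 to 42 for brm, 36 to 57 for the double mutant, 8 to 12 for the double mutant against hd2c and 13 to 32 against brm. In control it was 0 throughout for hd2c and 1 to 7 for the double mutant. For the response less that of WT it was 0 to 18 in hd2c, 3 to 14 in brm and 11 to 27 in the double mutant, and 97 to 108 genes met the rule. A fit of only the groups compared called 1 gene for hd2c against WT in heat, 4 for the double mutant against hd2c, 9 against brm and 1 for the hd2c response. Without moderation 17 were called for hd2c against WT in heat and 3 for the double mutant in control. Array weights gave 1 for hd2c in control, 11 for the double mutant in control, 1 for the hd2c response and 25 for the brm response, and an intensity trend gave 1 and 15 for these responses. The brm response had 3 with equal array medians. Quantile and cyclic loess scaling gave 1 each for the hd2c response. A response threshold of 0.8 left 164 genes, and 1.2 left 70. The fits of only the groups compared and those with an array left out hold fewer samples; otherwise the cause was not tested. The replicate block gave 1 for the hd2c response and changed no other count by over 1.5 times, with 35, 42 and 54 in heat against WT for hd2c, brm and the double mutant. The arrays of equal number are not paired by the labels, and 14 of 24 lay closest to their own number. Of 121 calls of named genes, 57 held in all 34 alternatives, and none turned its direction in any. The 3 arrays in each group limit what can be shown.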
